A study of Mus musculus with 17 samples.

Results

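The hub anchors of the double positive cells are the 500 autosomal chromatin regions with most loop partners in the pool of 5 H3K27ac HiChIP libraries of EpCAM/CD38 double positive cells. An anchor is a region at either end of a loop, and a loop is a pair of anchors joined by sequenced read pairs. Overlapping anchors of all 17 libraries were joined, which gave 216081 anchors, and 14876 autosomal anchors had a double positive read pair outside the start of chromosome 11. For each of these the distinct partners joined by at least 2 read pairs were counted, and the 500 anchors with most partners were taken. The hubs were therefore selected on double positive read pairs, so their double positive values, and any ratio that holds them, are given as a description with no test. No filter on low values was applied, and every count below covers all 500 hubs unless a number is stated.

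All libraries came from mouse embryonic stem cells of the R1 line that were grown as embryoid bodies in hanging drops and then kept in 0.5 µM retinoic acid (RA) for 4 days (RA-day 4). The 12 bulk libraries hold the unsorted cells, and the 5 libraries labelled cluster2 hold cells sorted for both surface proteins, as the study's methods state. The unsorted cells include double positive ones. The libraries held from 50508 to 118179 read pairs in loops in the double positive group and from 65148 to 241068 in the bulk group, after pairs that fell inside 1 joined anchor were dropped. Several sorting runs were needed to collect the double positive cells, and whether each library is a run of its own is not given in the sources used here. Nothing in the labels says that libraries of a group came from separate cultures, so the p-values below measure the spread between libraries, which may be technical. The anchors at the start sites of Epcam and Cd38, the sorting markers, had 7 and 6 partners in the double positive pool, and Epcam reached 60.6 ± 41.5 CPM (SD, n = 5) against 7.91 ± 6.79 (SD, n = 12) in bulk libraries. CPM is the number of read pairs at an anchor per 1000000 read pairs of the library.

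H3K27ac is an acetyl mark on histone H3 that lies on active promoters and enhancers. HiChIP ligates DNA ends that are close together in the nucleus and then enriches the ligated fragments with an antibody, so it reports contacts in which at least 1 end carries the mark. An anchor with many partners is one that was ligated to many other anchors in the cell population. It need not touch them all in 1 cell, and a contact does not by itself regulate a gene. Marked promoters of broadly expressed genes often lie close together in gene-rich chromosome segments, and such segments tend to contact each other.

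Sequence is shown for the hub with most partners, for the hub with most partners in each of 4 gene lists, and for the 2 hubs with most partners that hold no protein-coding start site, since both kinds of region recur below. Where an exon of another gene lay in the window, the next gene of the list was taken. The first 5 are the 200 bases before the most upstream annotated start site in the anchor, read toward the gene. The last 2 are the 200 bases of the anchor with most matches of the searched motifs, on the plus strand. All were read from mm9 (NCBIM37). Capitals mark matches, on either strand, to 13 searched motifs. Of these, the printed matches are to AAGATGGC (YY1), ACAAAG or ACAATG (SOX), AGCCAAT (NFY), TGACGTCA (CRE), CCGGAAG (ETS), GGGCGG (SP/KLF) and the DR5 repeat of retinoic acid receptors.
Ptbp1 upstream (chr10:79316972-79317171, plus strand): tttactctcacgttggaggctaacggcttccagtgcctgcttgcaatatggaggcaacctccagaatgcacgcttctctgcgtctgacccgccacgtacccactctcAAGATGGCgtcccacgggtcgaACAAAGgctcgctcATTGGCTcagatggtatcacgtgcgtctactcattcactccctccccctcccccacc
Ier2 upstream (chr8:87186752-87186951, minus strand): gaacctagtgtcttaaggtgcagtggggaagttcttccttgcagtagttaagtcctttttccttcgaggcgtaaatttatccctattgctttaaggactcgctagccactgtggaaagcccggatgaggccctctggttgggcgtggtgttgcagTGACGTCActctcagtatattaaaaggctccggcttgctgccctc
Krt18 upstream (chr15:101858447-101858646, plus strand): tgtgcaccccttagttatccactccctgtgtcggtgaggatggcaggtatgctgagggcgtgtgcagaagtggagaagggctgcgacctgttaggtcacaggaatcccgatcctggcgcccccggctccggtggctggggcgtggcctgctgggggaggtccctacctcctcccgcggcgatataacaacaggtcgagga
Rpl19 upstream (chr11:97887824-97888023, plus strand): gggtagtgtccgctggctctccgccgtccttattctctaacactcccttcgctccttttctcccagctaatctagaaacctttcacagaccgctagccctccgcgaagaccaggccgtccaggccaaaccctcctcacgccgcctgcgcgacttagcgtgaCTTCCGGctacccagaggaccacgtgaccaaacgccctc
Rara upstream (chr11:98798812-98799011, plus strand): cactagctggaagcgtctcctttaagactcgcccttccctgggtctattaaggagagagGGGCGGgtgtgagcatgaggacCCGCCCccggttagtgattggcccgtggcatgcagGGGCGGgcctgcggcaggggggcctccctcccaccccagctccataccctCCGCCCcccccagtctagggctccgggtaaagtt
Kdm6b anchor without a start site (chr11:69223386-69223585, plus strand): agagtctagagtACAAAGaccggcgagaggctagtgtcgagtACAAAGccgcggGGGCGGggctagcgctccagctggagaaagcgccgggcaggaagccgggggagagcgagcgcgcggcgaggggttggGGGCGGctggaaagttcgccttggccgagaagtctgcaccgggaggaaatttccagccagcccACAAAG
1110038B12Rik anchor (chr17:35087525-35087724, plus strand): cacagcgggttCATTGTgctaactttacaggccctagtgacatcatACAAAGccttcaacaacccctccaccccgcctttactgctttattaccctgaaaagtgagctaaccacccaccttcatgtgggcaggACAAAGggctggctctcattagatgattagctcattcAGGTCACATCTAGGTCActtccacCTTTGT
The Rara window held 4 SP/KLF matches and the Krt18 window none of the 13 motifs. The Ier2 window held the CRE match and the Rpl19 window the ETS match. The 1110038B12Rik window held a DR5 match beside 4 SOX matches. A match says only that these letters are there.

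Hubs had from 26 to 72 partners in the double positive pool, with a median of 31, and the other anchors a median of 6. The limit fell among 53 anchors with 26 partners, of which 35 were taken by their read pairs. The last hub, at Zfp568, had 154 read pairs, and the first anchor left out, near Crabp2, had 26 partners and 152 read pairs. Hubs were ends of 13679 (22.9%) of the 59839 double positive loops with at least 2 read pairs. When the 500 anchors with most partners were taken from each double positive library alone, with 1 read pair as the minimum, from 350 to 395 of the 500 hubs were found again. Each library was part of the pool that chose the hubs, so some of this overlap is built in and it is no independent check. Every hub had a read pair in each double positive library, which their choice by those read pairs favours. In bulk libraries 416 hubs had one in each. The share over all anchors was not counted for either, so these counts do not set hubs apart.

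**Figure D1:**
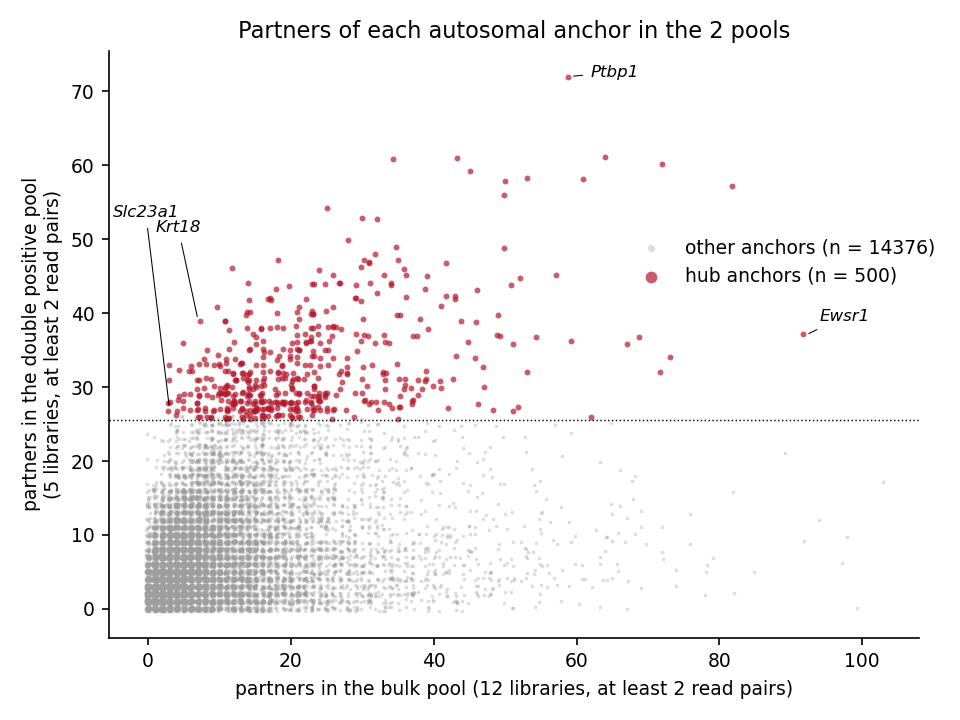
Each point is 1 autosomal anchor with a double positive read pair, with its partners in the bulk pool on the horizontal axis and in the double positive pool on the vertical axis (partners joined by at least 2 read pairs, points shifted at random by up to 0.3). The 500 hubs (red) lie above the dotted line by choice, at 26 to 72 double positive partners, and spread from 3 to 92 bulk partners.

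The gene with most partners was Ptbp1, a repressor of splicing, on chromosome 10 of mm9 from 79315799 to 79318565. This anchor, 2766 bp wide, held its start site and had 72 partners and 687 read pairs. Of the 72 partners, 59 held a protein-coding start site, 38 were hubs themselves and 47 had a bulk read pair. Its strongest loop, with 90 read pairs, led to an anchor 13391 bp away between genes that was itself a hub with 35 partners. The next loops led to Arid3a with 46 read pairs and to the anchor of Kiss1r and C030046I01Rik with 40. Ddx39b, a helicase of splicing and mRNA export, had 61 partners on chromosome 17 from 35376176 to 35381445, where its loops led to Bag6 and Prrc2a with 37 read pairs each and to Atp6v1g2 and Nfkbil1 with 56. Sf3a2, a subunit of the U2 snRNP of the spliceosome, shared an anchor with Plekhj1 that had 58 partners.

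Genes of translation stood beside them. Eef2, the elongation factor that moves the ribosome along the mRNA, had 59 partners on chromosome 10 from 80635438 to 80642098. Naca, a chaperone subunit that meets nascent proteins at the ribosome, had 58 on chromosome 10 from 127470412 to 127483224. The Naca anchor, 12812 bp wide, was the widest of the hubs, and 143 of its read pairs led to the anchor of Ptges3 and Baz2a, 19788 bp away. Mrpl54, of the mitochondrial ribosome, shared with Apba3 an anchor of 53 partners.

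Chromatin regulators and genes of several other functions were among the remaining leading hubs. Mbd3, a subunit of the NuRD repressor complex, had 60 partners, Kat5, a histone acetyltransferase, 58, and Hmg20b, of a histone demethylase complex, 54. Midn had 61 partners, and its strongest loop led to Cirbp, 16884 bp away, with 93 double positive and 106 bulk read pairs. Gpx4, which reduces lipid peroxides, had 61 as well. The anchor of Mus81 and Cfl1, the latter encoding the actin-severing protein cofilin, had 57. That of Akt1s1, an inhibitor of the mTOR complex, and Tbc1d17 had 53. Per1, of the circadian clock, had 50 partners, with 94 read pairs to Tmem107.

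A protein-coding start site lay inside 440 hubs (88.0%) and inside 9049 (63.0%) of the 14376 other anchors. Start sites of several genes lay inside 124 hubs (24.8%) and 7.07% of the other anchors. Of the 60 hubs without one, 34 lay between genes, 18 overlapped an exon and 8 lay in an intron. These 60 had a median of 29.5 partners, against 31 at hubs with a start site, and a median width of 4115 bp against 3611 bp.

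Genes that encode no protein stood at several of these 60 regions. A start site of an annotated non-coding gene other than a pseudogene lay inside 11 of them (18.3%) and inside 266 (4.99%) of the 5327 other anchors without a protein-coding start. One was Neat1, the RNA scaffold of paraspeckles, at a hub on chromosome 19 from 5843956 to 5848053 with 41 partners. Malat1, a nuclear RNA that lies beside it, had its start in a hub of 34 partners from 5799057 to 5804657, and 61 double positive and 38 bulk read pairs joined both anchors over 44147 bp. A U1 snRNA gene of the spliceosome lay in a hub of 42 partners on chromosome 3 from 96130565 to 96133786, whose loops included 38 read pairs to the histone gene Hist2h4. The processed transcript 1110038B12Rik and 3 snoRNA genes annotated at the same place had a hub of 47 partners on chromosome 17 from 35086934 to 35090657, the region of the last sequence above, with 38 read pairs to Neu1, 30 to Hspa1a and 24 to Hspa1b, both genes of heat shock proteins. Mir22 lay in a hub of 27 partners and Mir210 in a hub of 26. Over all 500 hubs, 9 (1.80%) held the start of an snRNA gene and 8 (1.60%) that of a snoRNA gene, against 0.35% and 0.40% of the other anchors. Many genes of small RNAs have near-identical copies, so reads there may be placed with less certainty.

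The hub with most partners among the 60 lay in Kdm6b, which encodes a demethylase of the repressive mark H3K27me3, on chromosome 11 from 69221169 to 69226055. It had 56 partners, and its middle was 3565 bp from the nearest start site. Its strongest loop, by 228 double positive against 88 bulk read pairs, led to a second hub without a start site, 7370 bp away, on the other side of the gene's start. The Kdm6b hub thus had a start site within 5 kb. Hubs with none within 5 kb lay in BC089597 near Rdh7 with 40 partners and in an intron of Gng7 with 39. The latter had 53 read pairs to Gadd45b, 31623 bp away.

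By gene list, 565 of the 10214 protein-coding genes with a start site inside an anchor had it inside a hub, which is 5.53%. The lists and families below were drawn up with earlier results of these data known, and the families after hub names had been seen, so their counts are descriptions. Of 17 immediate early genes, which cells switch on within minutes of a stimulus, 5 were at hubs (29.4%). They were Ier2 with 43 partners, Fosb with 40, Jund with 39, Egr1 with 30 and Junb with 28, and Dusp1 had 25. Fos had 14 and Jun 8, so members of the same dimer family lay on both sides of the limit. Ribosomal protein genes had 11 of 71 at hubs (15.5%), led by Rpl18, whose anchor it shared with Sphk2 and Fam83e, with 44 partners, and Rpl19 with 39. Spliceosome and RNA processing genes had 16 of 80 and translation factors 8 of 55 (14.5%). Replication histone genes had 18 of 58 (31.0%), but these sat in 9 hub anchors, since their start sites are shared or adjacent. Mitochondrial ribosome genes had 3 of 61 (4.92%), proteasome genes 1 of 37 (2.70%) and solute carriers 10 of 157 (6.37%). Genes of the respiratory chain and ATP synthase had 7 of 76 (9.21%), and those of RNA polymerase II and Mediator 3 of 32 (9.38%).

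Lists of genes that mark the lineages of these cells were short, and at the 5.53% of all genes a list of this size would hold few hubs or none. Of 11 epithelial genes with an anchor, Krt18 with 39 partners and Spint2 with 33 were hubs (18.2%). Krt18 encodes a keratin of simple epithelia and Spint2 an inhibitor of membrane proteases. Cldn7 and Cldn6, of tight junctions, had 24 and 23 partners, and Krt8, whose protein pairs with that of Krt18, had 12. An anchor between genes beside Krt8 was a hub with 36 partners. Of 9 genes of the retinoid response, Rara, a receptor for RA, was a hub with 26 partners (11.1%), while Rarg had 19, Cyp26a1, which degrades RA, 15, and Dhrs3 10. No hub held a start site of the 9 endoderm regulators with an anchor, of which Foxa3 had 23 partners, Gata4 16 and Sox17 4. The same was true of 9 basement membrane genes, with Lamb2 at 23, of 10 visceral endoderm genes, with Apoe at 23, of 12 genes of secretion and collagen folding, with Calr at 25, and of 31 Hox genes, with Hoxa4 at 21. The median was 5 partners for endoderm regulators, 6 for basement membrane, 7.5 for visceral endoderm and 9 for Hox genes. It was 19 for secretion and collagen folding, and 7 over all genes with an anchor. The 21 neural genes had a median of 2 partners and 9 at most, at Nes. The 4 pluripotency genes had 13 at most, at Sall4, and of the vessel and blood genes Lyl1 had 20. Counts of 0 in lists this short do not set them apart from the 5.53% of all genes. Of other families, 1 of 58 homeobox genes outside the Hox clusters (Six5), 1 of 14 Sox genes (Sox15) and none of 17 Fox genes were at hubs.

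Local density differed between the lists. A gene with an anchor had a median of 15 other anchors with a double positive read pair within 500 kb, whereas the list genes at hubs had medians of 36 for immediate early genes, 37 for ribosomal proteins and 47 for RNA processing. Over whole lists the medians were 16, 19 and 17, against 9 for neural genes and 6 for endoderm regulators, but 27 for Hox genes and 19 for genes of secretion and collagen folding, none of which was at a hub, and 20 for proteasome genes. Replication histones, with the largest share at hubs, had a whole-list median of 29.5, and epithelial genes had 22. Basement membrane genes had 10 and pluripotency genes 6, with none at a hub. The medians of genes at hubs were high by the choice of hubs. The part of density in the counts by list was not tested.

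**Figure D2:**
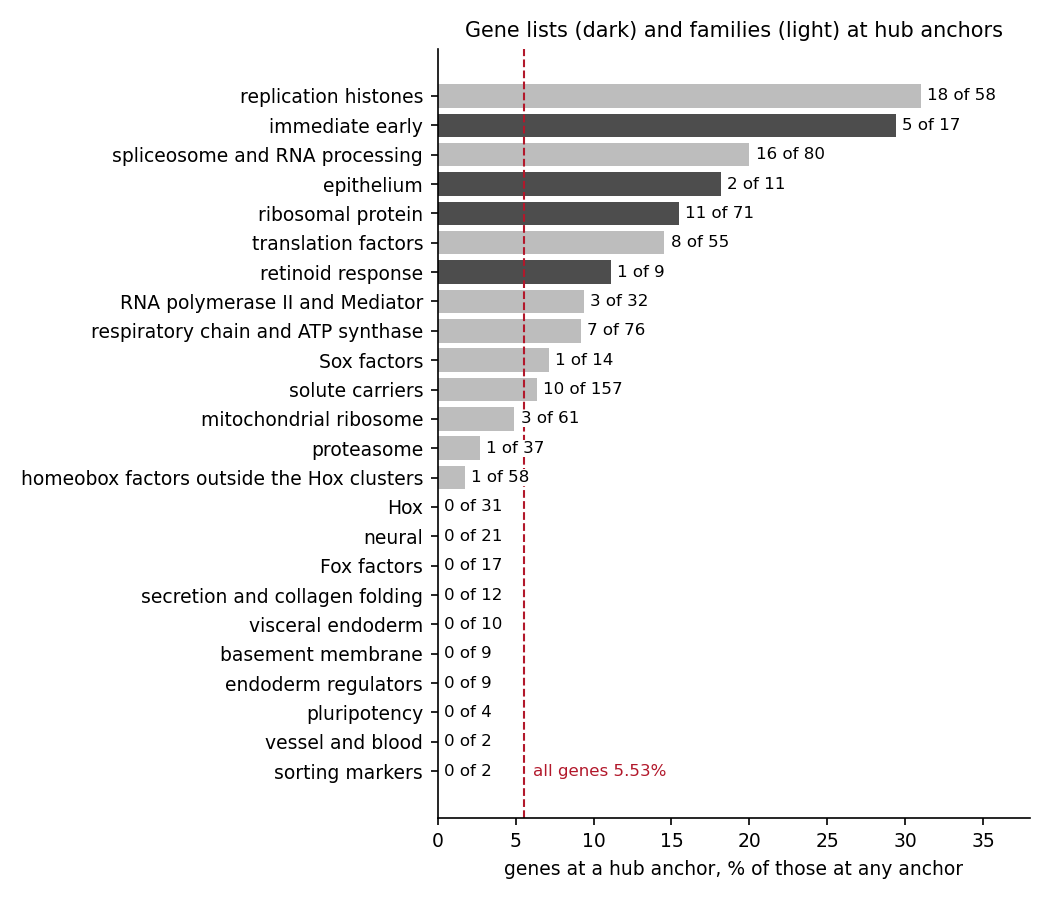
Bars give the percentage of genes with a start site inside any anchor of the double positive loops that had it inside a hub anchor, for gene lists (dark) and gene families (light), with the counts at the bar ends. The dashed line is the 5.53% of all 10214 genes. Replication histones (18 of 58) and immediate early genes (5 of 17) had the longest bars, and 10 lists and families had none.

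The hubs lay close together on a few chromosomes. Chromosomes 7, 10, 11, 17 and 19 held 340 hubs (68.0%) but 30.95% of the anchors, with 87 on chromosome 7 and 77 on chromosome 10, and chromosomes 14 and 16 held none. When hubs no more than 500 kb apart were joined, 84 neighbourhoods were found, of which 16 with at least 10 hubs held 324 hubs (64.8%), and 31 hubs stood alone. The largest, around Ptbp1 on chromosome 10 from 79143431 to 81070648, held 52 hubs among 121 anchors, with 624 loops between hubs. Ptbp1, Gpx4, Midn, Mbd3, Sf3a2, Eef2, Mrpl54 and Hmg20b all lay in it. The next was around Kat5 and Mus81 on chromosome 19, with 33 hubs, and it also held Neat1 and Malat1. Neighbourhoods of 29 hubs lay around Kdm6b on chromosome 11 and around Akt1s1 on chromosome 7.

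A hub had a median of 38 other anchors with a double positive read pair within 500 kb, against 13 for the other anchors, and a median of 44 protein-coding genes starting in that window, against 16. Of the 500 hubs, 311 were in the densest decile of anchors, where 20.8% of anchors were hubs, and none was in the 4 sparsest deciles. The anchor count of a hub includes its own partners within 500 kb. These anchor densities are thus high in part by the choice of hubs and were not tested. Hubs were wider, with a median of 3697 bp against 3196 bp, although the widths overlapped over nearly the whole range (1598 to 12812 bp against 1192 to 18683 bp). The share of anchors that were hubs rose from 1.28% in the narrowest decile to 6.45% in the widest, so narrow anchors were among the hubs too. GC content over the middle 2 kb had a median of 54.7% at hubs and 51.8% at other anchors. Ranked by partners per kb of width instead, 295 of the 500 hubs were chosen again and the median width became 2709 bp. That ranking divides by width and so favours narrow anchors, so it cannot show whether the difference in width is stable.

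**Figure D3:**
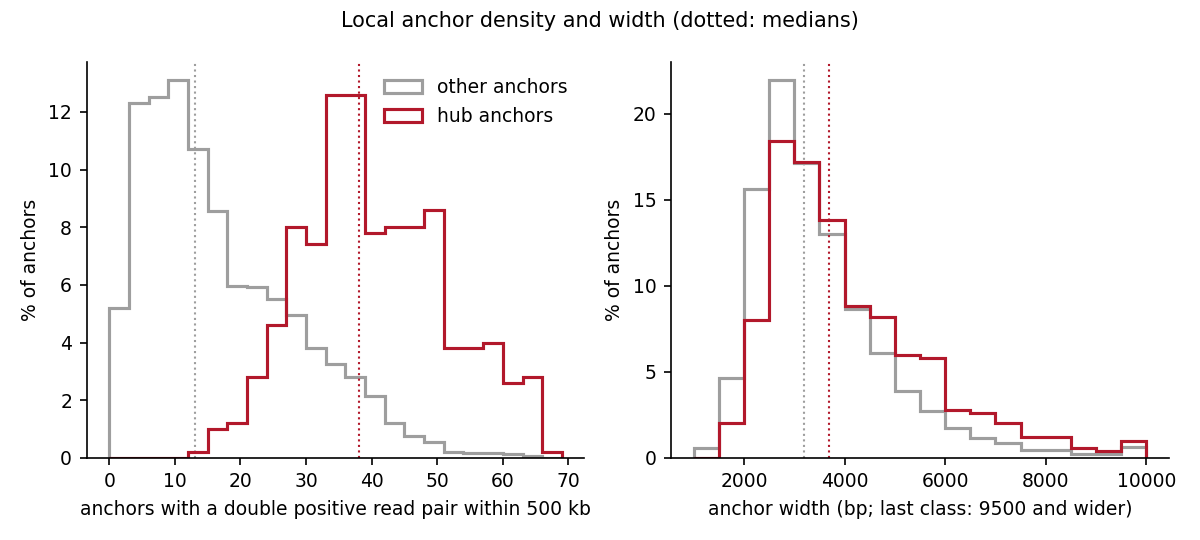
Distributions, in % of anchors, of the number of other anchors with a double positive read pair within 500 kb (left) and of anchor width in bp (right), for 500 hubs (red) and 14376 other anchors (grey), with medians dotted. The density medians are 38 and 13 anchors, and the width medians 3697 and 3196 bp. The density of a hub includes its own partners within 500 kb.

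Hub loops ran farther than other loops. Hubs were chosen for many partners in these same loops, so the spans describe that choice and were not tested. The middles of the anchors of hub loops were a median of 215195 bp apart, against 138160 bp for the 45650 autosomal loops without a hub, although both had a median of 3 read pairs. Of the partners of hubs, 79.3% held a protein-coding start site, and of the partners of other anchors 73.5%. Loops with a hub at both ends numbered 2883, or 21.1% of hub loops. No expected share was counted, so this does not show that hubs join each other more than other anchors. A bulk read pair was found for 7610 (55.6%) of the hub loops and for 54.8% of the loops without a hub. Rara, for example, had 12 of its 26 partners, Krt18 8 of 39 and Slc23a1 3 of 27, while Rps15 had 26 of 32.

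Bulk read pairs did not enter the choice of hubs, and partner numbers in the bulk libraries were tested with the limits that follow. Bulk anchors did enter the joining of overlapping anchors, so the extents of hubs and partners are not fully independent of the bulk libraries. Double positive cells, whose read pairs chose the hubs, are among the unsorted cells, so higher bulk values at hubs may be partly built in. Each test compared the same sets of anchors in every library. The p-values of the bulk tests therefore show only that the libraries pointed the same way. In the pool of 12 bulk libraries hubs had a median of 20 partners, from 3 to 92, and the other anchors 6, from 0 to 103. The double positive pool held 409248 read pairs and the bulk pool 1616066. At least 2 read pairs joined 51.5% of 116255 double positive loops and 18.1% of 1141531 bulk loops. Partner numbers of the 2 pools are therefore not on the same scale. Within a bulk library, counting partners with at least 1 read pair, the mean over hubs was 4.34 in the lowest, 8.08 in the median and 18.1 in the highest library, and the mean over the other anchors 2.02, 3.95 and 8.12. Both were lowest in the library with fewest read pairs and highest in that with most. Hubs had more partners in 12 of 12 bulk libraries, by 4.78 ± 2.39 (SD, n = 12), with p = 0.000488 in a two-sided exact permutation test over all sign patterns and 0.000488 after Benjamini-Hochberg adjustment over 4 tests, the smallest value this design allows. Within deciles of anchor width the difference was 4.53 ± 2.30 (SD, n = 12, exact permutation p = 0.000488). Within deciles of local anchor density, a setting chosen after seeing the data, it was 4.66, and in the densest decile hubs had a mean of 8.85 partners and the other anchors 4.26. With every bulk library thinned to the smallest total the difference was 2.58.

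Read pairs per kb pointed the same way. Bulk libraries had from 1.22 to 6.57 read pairs per kb of hub anchor and from 0.63 to 2.97 per kb of the other anchors. The log2 ratio was 0.98 ± 0.11 (SD, n = 12), above 0 in 12 of 12 libraries (exact permutation p = 0.000488, adjusted 0.000488). It was 1.71 with bulk loops on anchors of double positive loops alone, and 0.74 within deciles of local anchor density, the latter chosen after seeing the data. Since the unsorted cells include double positive cells, their part in the bulk values was not tested.

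Hubs with a protein-coding start site had more bulk partners than hubs without one in 12 of 12 bulk libraries. The means ranged from 4.45 to 18.5 partners at the 440 hubs with a start and from 3.52 to 15.1 at the 60 without, a difference of 1.58 ± 0.85 (SD, n = 12, exact permutation p = 0.000488, adjusted 0.000488). Within quintiles of width it was 1.31. It was 0.88 with bulk loops on anchors of double positive loops alone and 0.84 with the bulk libraries thinned. When a start site within 5 kb was counted as well, the difference was 1.08 and lay above 0 in 11 of 12 libraries.

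**Figure D4:**
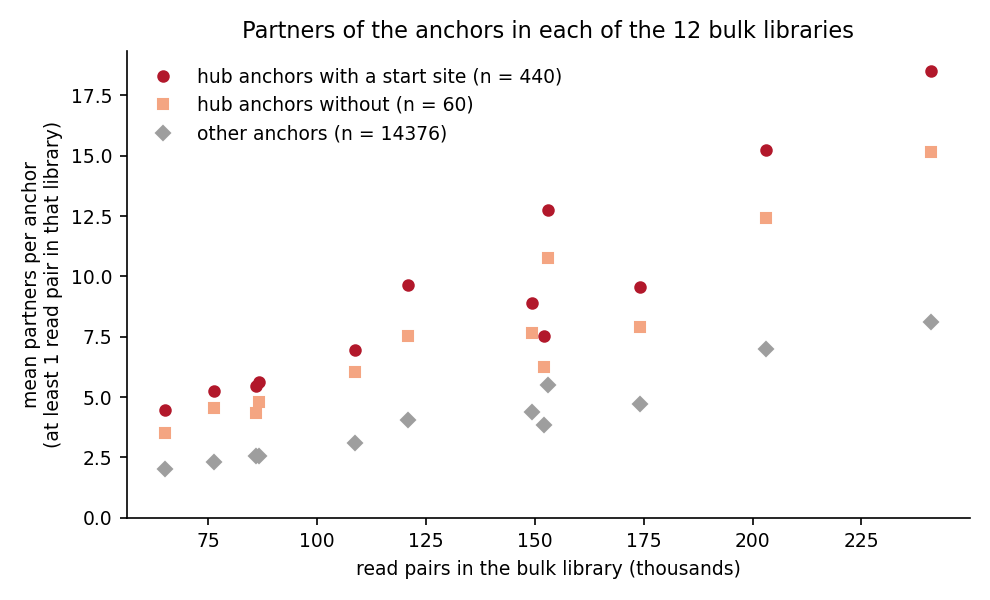
Mean number of partners per anchor (at least 1 read pair in that library) in each of the 12 bulk libraries, against the library's read pairs, for 440 hubs with a protein-coding start site (circles), 60 hubs without (squares) and 14376 other anchors (diamonds). In every library the circles lie above the squares and the squares above the diamonds.

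By the same rule, the 500 anchors with most partners in the bulk pool shared 64 (12.8%) with the 500 hubs of the double positive pool. For scale, 500 anchors are 3.36% of the 14876 with a double positive read pair, and bulk hubs need not be among these. Distal chromosomes 1 (from 130 Mb) and 2 (from 150 Mb) held 194 (38.8%) of the bulk hubs and 5 of the double positive ones, and without them 98 anchors were shared. With bulk hubs taken from loops on anchors of double positive loops alone, a setting chosen after seeing the data, 207 were shared. Of the 15 leading double positive hubs, 10 were bulk hubs, among them Ptbp1 with 59 bulk partners, Midn with 64, Mbd3 with 72 and the anchor of Mus81 and Cfl1 with 82. Hmg20b with 25 and Per1 with 28 were not. The most bulk partners of any hub, 92, were at Ewsr1 and Rhbdd3, which had 37 in the double positive pool. Setd1b and Rhof had 73, and Zfp335 72. The fewest, 3 each, were at Spint2, the zinc transporter Slc39a4, Nacc1 with Trmt1, Rcn3, a calcium-binding protein of the secretory pathway, and Slc23a1, a vitamin C transporter, which had from 27 to 33 partners in the double positive pool.

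The share of read pairs with an end at a hub was 24.5% ± 0.423 (SD, n = 5) in double positive libraries and 3.6% ± 0.735 (SD, n = 12) in bulk libraries. Bulk loops use many more anchors, and over loops whose anchors both lie in double positive loops the bulk share was 17.5% ± 0.855 (SD, n = 12). These values describe the choice of the hubs and were not tested. All 5 double positive CPM lay above all 12 bulk CPM at 489 hubs, but 42.2% of the 14876 anchors did so too. Over loops on shared anchors the groups did not overlap at 72 hubs, beside 3.82% of all anchors. The median ratio of the means was 8.31 at hubs and 3.63 over all anchors, and over shared anchors 1.52 and 1.18, with 86 hubs below 1.

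Read pairs at single hubs differed widely in how far the groups lay apart. Ptbp1 had 1752, 1722, 1665, 1901 and 1458 CPM in double positive replicates 1 to 5, and 138 in the lowest, 224 in the median and 423 in the highest bulk library. Midn had 1972, 1733, 1763, 1802 and 1313 CPM, and 145, 209 and 531 in bulk libraries. The groups did not overlap at either gene, but over shared anchors the ratio of the means was 1.09 at Ptbp1 and 0.85 at Midn. Zfp335 and the anchor of Mus81 and Cfl1 had ratios of 0.43 on that scale. At Ewsr1 the groups overlapped, with 888, 744, 529, 495 and 898 CPM in double positive libraries and 172, 300 and 512 in bulk libraries.

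Krt18 lay far apart, with 1455, 1314, 1803, 1188 and 1603 CPM in double positive libraries and 17.2, 32.9 and 81.5 in bulk libraries, a ratio of 35.8, or 5.97 over shared anchors. Fosb had 1210, 1768, 1332, 1109 and 1323 CPM against 0, 31.8 and 91.5, a ratio of 35.7, or 5.96 over shared anchors. Both were well above every bulk library on both scales. Spint2 had 702, 581.6, 843, 535 and 618 CPM against 4.92, 27.0 and 46.5, and a ratio of 4.86 over shared anchors. Slc23a1 had 533, 500.2, 431, 673 and 512 CPM against 0, 16.9 and 33.1, and the highest ratio of all hubs over shared anchors, 11.2. Rcn3 had 305, 407, 353, 238 and 454 CPM against 0, 8.75 and 20.1, with a ratio of 7.61.

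Among the immediate early genes the groups stood closer at Egr1 and Ier2 than at Fosb. Egr1 had 635, 744, 607, 614 and 599 CPM in double positive libraries and 59.1, 136 and 430.3 in bulk libraries, a ratio of 1.10 over shared anchors. Ier2 had 838, 686, 745, 792 and 773 CPM against 32.9, 142 and 253, a ratio of 1.36. Jund and Junb had ratios of 1.88 and 1.39 over shared anchors. Of the ribosomal protein genes, the anchor of Rpl18 had a ratio of 3.86 over shared anchors, with 1142, 1012, 1038, 1228 and 946 CPM against 17.2, 56.5 and 104.9, whereas Rps2 had 0.99 and Rps15 0.68. Rara had 719, 710, 784, 634 and 657 CPM against 39.4, 81.5 and 118, and 1.87 over shared anchors, without overlap. The difference between genes in these ratios was not tested.

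**Figure D5:**
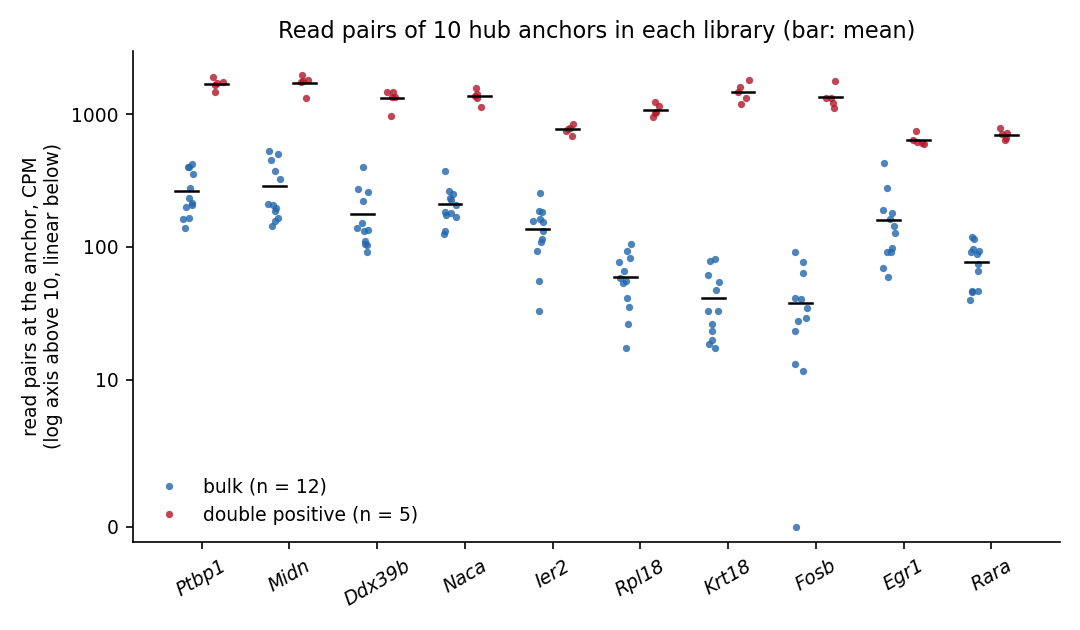
Read pairs, in CPM, at 10 hub anchors in each bulk library (blue, n = 12) and each double positive library (red, n = 5), with means as bars, on an axis that is logarithmic above 10 and linear below. The red points lie above the blue points at each of the 10 anchors, which were selected on double positive read pairs, and lie farthest apart at Krt18 and Fosb.

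The middle 2 kb of the anchors were searched for 13 motifs on both strands in mm9. GGGCGG (SP/KLF) was found in 87.6% of hubs and 72.2% of all 14876 anchors, and CCGGAAG (ETS) in 36.6% and 25.6%. TGACGTCA (CRE) was in 7.6% and 4.13%, GCGCATGCG (NRF1) in 6.4% and 3.48%, and AAGATGGC (YY1) in 17.2% and 13.4%. Among anchors with a start site the first 2 stood closer, with SP/KLF in 90.9% of hubs and 85.1% of all such anchors, and ETS in 176 of 440 hubs and 32.2%. GTAAACA (FOX) was in 15.8% of hubs and 21.1% of all anchors, SOX in 83.4% and 89.0%, and TGANTCA (AP-1) in 32.4% and 36.9%. Among anchors with a start site these stood closer too, with FOX at 15.9% and 19.0%, SOX at 82.7% and 85.8%, and AP-1 at 31.8% and 32.6%. GATA was searched as AGATAA, with T also allowed as the first letter and G as the last, and was in 88.6% and 89.7%. TEAD (GGAATG) was in 64.4% and 64.9%, CTCF in 19.4% and 18.2%, and AGCCAAT (NFY) in 20.8% and 23.7%. The DR5 repeat was in 4 hubs (0.80%) and in 1.12% of all anchors. No motif spelled out here holds another. The shares are descriptions of the reference sequence and were not tested.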

How the data were processed

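H3K27ac HiChIP was analysed in 12 bulk and 5 double positive libraries. The authors aligned reads to mm9 with HiC-Pro and called peaks and loops with hichipper, and left out replicates with few strong loops. The deposited values are counts of read pairs per pair of anchors, without normalization, and files list loops with a read pair, so unlisted pairs of anchors are at 0. Which peaks gave each anchor set is not given in the sources used here. Anchors sharing a base were joined (700 read pairs fell inside 1 joined anchor), and partners were counted with a minimum of 2 read pairs. Start sites came from GENCODE's mm9 annotation. The hub rule and gene lists were chosen with earlier results of these data known. Bulk values were tested by sign permutation in scipy 1.17.1, after a check on simulated data. Named hubs are the 15 with most partners, the 5 with most that lack a start within 5 kb, those at the limit, those of list genes, and the 5 with most and fewest bulk partners. The Ptbp1 sequence, the second Kdm6b hub and non-coding genes were added after seeing values. Counts of every pair of libraries of a group, summed per anchor, differed by more than sampling noise, with chi-square per degree of freedom from 1.09 to 1.20 in double positive and from 1.57 to 4.79 in bulk libraries. Alternatives changed the minimum of read pairs, the ranking, loop span, binning of partners, depth by thinning, the bulk anchors used, distal chromosomes 1 and 2 and the libraries included.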

Additional observations from a re-analysis of the deposited data

Results flagged for a closer look

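Of 46 named hubs, 3 had 1 double positive library far from the other 4 by Dixon's ratio, which chance gives in about 1 in 20 groups. Gpx4 had 979.7 CPM in double positive replicate 3 and 1400.2 to 1564 in the others. Ddx39b had 970.1 CPM in replicate 4 and 1338 to 1470 in the others. Egr1 had 744 CPM in replicate 2 and 599 to 635 in the others. Each still lay above every bulk library.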

How the results depend on the processing

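The 4 tested differences kept their direction and their side of the threshold under every alternative run, 16 for bulk partners, 15 within deciles of width, 18 with and without a start site and 16 for read pairs per kb. With each double positive replicate left out in turn and the hubs chosen again, they ranged from 4.74 to 4.91 partners, from 4.48 to 4.64 within deciles of width, from 1.48 to 1.88 with against without a start site, and from 0.95 to 0.99 for the log2 ratio. The median width of hubs was 3608 bp with 1 read pair per partner, 3770 with 3, 3777.5 with 5, 3756.5 with partners counted once per 25 kb bin and 2709 by partners per kb, and from 3663 to 3756.5 with a replicate left out. By partners per kb 295 hubs were retained, and from 442 to 460.0 without 1 replicate. The other choices retained from 353 to 468. Hubs shared with bulk hubs numbered 98 without distal chromosomes 1 and 2 and 207 from loops on anchors of double positive loops alone. With CPM over those loops the groups did not overlap at 72 hubs. With a replicate left out, hubs with a start site numbered from 435 to 442, hubs shared with bulk hubs from 63 to 66 and hubs without overlap of the groups from 491 to 493. The causes were not tested. No paired analysis was possible because the comparison of the groups, whose hubs were selected on double positive read pairs, carries no test to which a block by replicate number could be added, and the tested differences lie within bulk libraries. Most loops rest on few read pairs, so partner counts depend on depth, and PCR copies may be among them.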
